A study of Homo sapiens with 3 samples.

Results

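The genes described here are the kinesins, the centromere protein (CENP) genes and a set of kinases, cyclins and chromosome proteins that run mitosis, measured by RNA-seq in DU145 cells. A gene was included when it was listed as protein-coding and its symbol was KIF followed by a number, with or without a further letter, or CENP followed by letters, or was 1 of 16 named mitosis genes: AURKA, AURKB, PLK1, BUB1, BUB1B, TTK, CDK1, CCNB1, CCNB2, TPX2, NDC80, NUF2, BIRC5, CDC20, TOP2A and MKI67. This gave 76 of the 58735 genes listed, namely 39 kinesins, 21 CENP genes and the 16 named genes, and all 76 lie where GENCODE 29 places them on GRCh38. Of these, 72 reached the minimum of 10 counts summed over the libraries and were tested among 19849 genes.

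DU145 is an androgen-independent cell line from a human prostate cancer, and 3 libraries of it were sequenced. The study's methods give the empty pLKO.1 vector as the control for the stable lines. For RNA-seq they name the control cells only as DU145, so whether these carried the vector is not stated. The other 2 libraries are labelled PD-L1 knockdown 1 and 2 (here libraries 1 and 2). Per the methods, their cells stably carried a short hairpin RNA against PD-L1, the product of CD274, delivered by lentivirus. The methods list 1 hairpin sequence, so which sequence belongs to which library is not given in the sources used here. The labels name DMEM as the medium and the methods EMEM, and the series text names BCPAP, a thyroid cancer line. There was 1 control library, so p-values rest on the spread between the libraries labelled PD-L1 knockdown. The methods name their cells sh1 and sh2, so that spread also holds any difference between these hairpin lines, and no line has a replicate culture here.

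CD274 itself, the targeted gene, was counted 204 times in the control, 213 times in library 1 and 224 times in library 2 (log2 fold change 0.05, SE 0.20), so it was not lower in the libraries labelled as knockdown, and every direction given here is that of the label. The study checked its stable lines by Western blot before further work, with a blot of PD-L1 protein in DU145 cells, and presents them as knockdown. That protein measurement was not analysed here. RBM45, an RNA-binding protein whose symbol stands at the head of the control's count column, had 150, 160 and 152 counts. Library totals were 14733088, 14738298 and 15786457 counts. The epithelial markers EPCAM, KRT8, KRT18 and CDH1 were all expressed, with at least 755 counts in each library. The luminal prostate markers KLK2, KLK3 and TMPRSS2 had 0 counts in every library, which allows up to 0.204 CPM (the count scaled to a fixed library size) in the control and in library 1 and 0.190 CPM in library 2. Of the thyroid markers, TG and TSHR had at most 15 counts in a library, PAX8 had 13, 28 and 29, and NKX2-1 had 1833, 2118 and 2590.

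Kinesins are motors that walk along microtubules. Some build the spindle, move chromosomes or split the daughter cells, while others carry cargo in cells that are not dividing. CENP proteins mark the centromere and assemble there the kinetochore, the plate to which spindle microtubules attach. The checkpoint kinases delay anaphase until every kinetochore is attached, and CDC20 then activates the ubiquitin ligase that destroys cyclin B and ends mitosis. Many of these genes are transcribed in the G2 and M phases of the cell cycle, so in a culture their RNA follows the share of cells in those phases as well as the RNA per cell, and a bulk library cannot tell a smaller share of such cells from less RNA in each.

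Promoters of genes of this kind are known for CCAAT boxes, bound by NF-Y, and for a cell cycle genes homology region (CHR), bound by the DREAM and MuvB complexes. The letters searched were CCAAT and, for the CHR, TTTGAA or TTTAAA, each on both strands, in the 250 bases before each transcription start that RefSeq gives on GRCh38.p14. Of the 76 genes, 62 matched by symbol, with 75 promoters between them. The CHR letters were in 29.3% of these 75 promoters and in 21.9% of all 35116 promoters, and within the last 100 bases before the start in 21.3% against 8.24%. CCAAT was in 53.3% against 32.0%, and both were in 24.0% against 7.64%. All 3 promoters of the B cyclins and CDC20 held both sets of letters, and so did 40.0% of those of mitotic kinesins, but 5.88% of those of transport kinesins and 0% of the 10 promoters of other kinesins. A match is a string of letters in this window and does not show binding.

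The 120 bases before the start are shown for 8 genes with both sets of letters close to the start, and for TOP2A and KIF1C as contrasts. Capitals mark the CCAAT letters (ATTGG on the other strand) and the CHR letters. Each runs 5′ to 3′ on the strand of its gene and ends at the base before the start.
CCNB1 (chr5:69167030-69167149, plus strand): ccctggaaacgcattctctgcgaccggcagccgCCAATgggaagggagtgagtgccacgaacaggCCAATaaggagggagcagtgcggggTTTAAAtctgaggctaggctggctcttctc
CCNB2 (chr15:59105026-59105145, plus strand): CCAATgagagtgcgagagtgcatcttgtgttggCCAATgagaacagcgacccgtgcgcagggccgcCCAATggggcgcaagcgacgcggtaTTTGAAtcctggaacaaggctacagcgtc
CDC20 (chr1:43358861-43358980, plus strand): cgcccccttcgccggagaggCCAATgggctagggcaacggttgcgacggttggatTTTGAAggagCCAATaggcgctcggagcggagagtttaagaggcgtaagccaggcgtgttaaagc
PLK1 (chr16:23678769-23678888, plus strand): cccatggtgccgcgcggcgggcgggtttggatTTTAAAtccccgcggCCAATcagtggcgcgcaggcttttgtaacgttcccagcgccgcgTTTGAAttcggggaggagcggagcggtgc
KIF20A (chr5:138178992-138179111, plus strand): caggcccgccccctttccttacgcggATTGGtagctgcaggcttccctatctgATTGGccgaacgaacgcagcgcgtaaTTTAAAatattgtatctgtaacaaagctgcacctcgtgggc
KIF23 (chr15:69414229-69414348, plus strand): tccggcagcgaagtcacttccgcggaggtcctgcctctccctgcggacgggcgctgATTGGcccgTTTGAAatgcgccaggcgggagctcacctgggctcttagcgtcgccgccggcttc
KIF4A (chrX:70289984-70290103, plus strand): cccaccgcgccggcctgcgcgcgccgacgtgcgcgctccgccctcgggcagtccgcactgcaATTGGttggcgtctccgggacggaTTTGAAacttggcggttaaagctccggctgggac
MKI67 (chr10:128126424-128126543, minus strand): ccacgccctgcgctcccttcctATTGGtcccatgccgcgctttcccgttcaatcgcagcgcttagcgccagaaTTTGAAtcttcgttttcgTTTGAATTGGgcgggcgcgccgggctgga
TOP2A (chr17:40417897-40418016, minus strand): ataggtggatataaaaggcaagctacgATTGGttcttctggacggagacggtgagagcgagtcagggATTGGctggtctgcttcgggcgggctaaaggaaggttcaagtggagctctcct
KIF1C (chr17:4997830-4997949, plus strand): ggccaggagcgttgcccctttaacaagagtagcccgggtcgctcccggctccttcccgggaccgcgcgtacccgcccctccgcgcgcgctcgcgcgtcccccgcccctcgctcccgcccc
In the 120 bases shown, the CHR letters begin 30 bases (CCNB1) and 29 bases (CCNB2) before the start, downstream of the CCAAT boxes. In PLK1 they begin 88 and 29 bases before the start, on both sides of 1 CCAAT box. Farther from the start, CHR letters also begin at 193 bases in CCNB2, 148 in PLK1, 178 in CDC20 and 211 in KIF23. In MKI67 the last base of the CHR letters that begin 29 bases before the start is also the first base of an inverted CCAAT box. TOP2A has CCAAT letters in this stretch and CHR letters only farther away, at 194 and 151 bases, and the transport kinesin KIF1C has neither.

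Several of the mitotic genes were among the most abundant RNAs of these cells per length. Levels between genes are given as FPKM, the deposited count scaled by gene length and library size. In the control library 3 members reached 100 FPKM, 36 lay between 10 and 100, 24 between 1 and 10, and 13 below 1. Among 19951 protein-coding genes TOP2A, which untangles DNA before chromosomes part, ranked 102nd at 166 FPKM in the control. TPX2, the spindle protein that activates Aurora A, ranked 219th at 103 FPKM, CDC20 ranked 229th at 101 FPKM, the proliferation marker MKI67 ranked 303rd at 85.5 FPKM and CCNB1 ranked 337th at 79.6 FPKM. Together the members took 0.814%, 0.784% and 0.760% of all counts in the control and libraries 1 and 2. MKI67 and TOP2A, long and abundant, made up 26.7%, 25.6% and 25.5% of the members' counts.

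**Figure D1:**
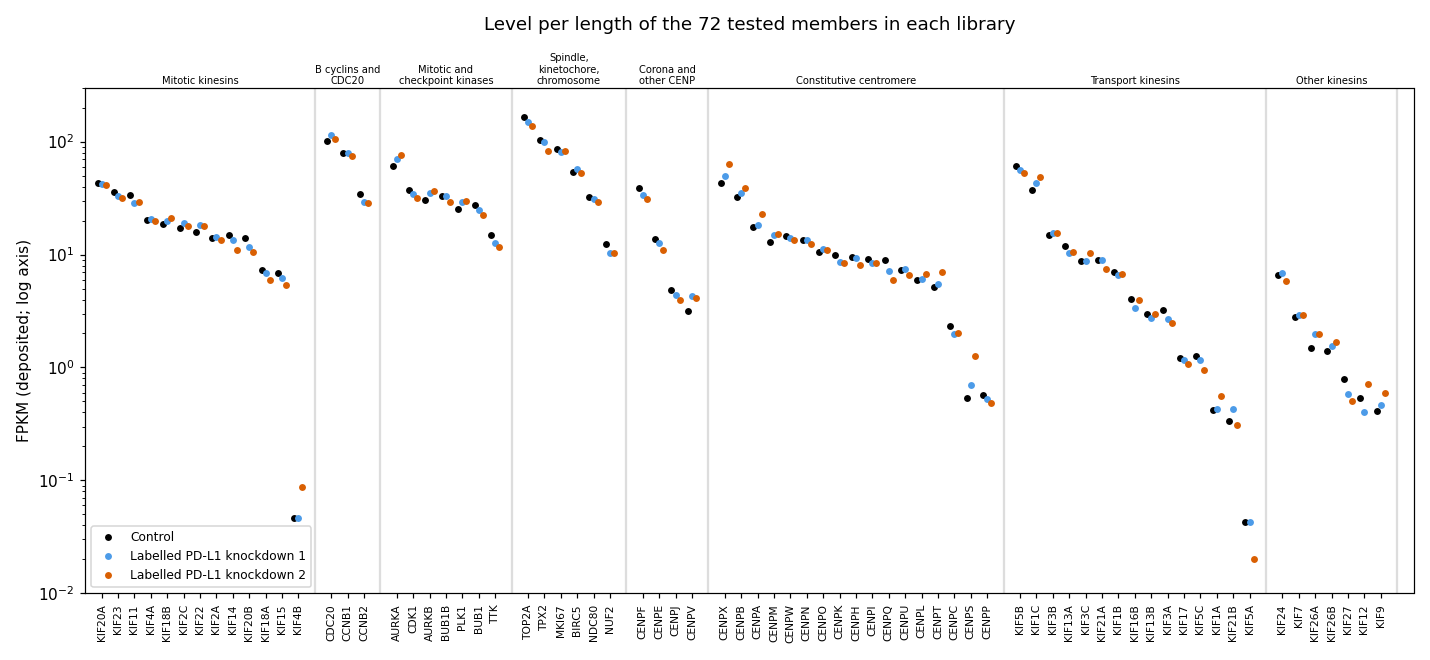
Deposited FPKM (log axis) of each of the 72 tested members in the control and in the libraries labelled PD-L1 knockdown 1 and 2, grouped by role and ordered by mean FPKM within a role; each point is 1 library. Mitotic genes from KIF20A to TOP2A lie mostly above 10 FPKM, transport and other kinesins reach down to 0.0202 FPKM (KIF5A), and within a gene the libraries lie close together.

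Kinesins of the same family sat at very different levels. Among mitotic kinesins, KIF20A and KIF23, which act at the midzone and in cytokinesis, had 43.2 and 35.6 FPKM in the control, and KIF11, the motor that pushes spindle poles apart, had 33.6. The other mitotic kinesins of the tested set ranged down to 6.86 FPKM for KIF15, apart from KIF4B at 0.0461. Of the transport kinesins, KIF5B, the ubiquitous conventional kinesin heavy chain, had 61.0 FPKM in the control, whereas its neuronal relatives KIF5C and KIF5A had 1.26 and 0.0430. KIF1C likewise had 37.6 FPKM, KIF1B 7.01 and the neuronal KIF1A 0.424. Among the other kinesins only KIF24 (6.58), KIF7 (2.80), KIF26A and KIF26B (1.40) exceeded 1 FPKM. KIF2B had 0 counts in every library, KIF19 had 2, 0 and 2, KIF25 had 2, 0 and 3, and KIF6 had 0, 1 and 3, at or below 3 counts, so no ratio is given for these 4.

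In the centromere, levels were uneven among subunits of 1 assembly. CENPX had 42.8 FPKM in the control, CENPB, which binds a repeat of satellite DNA, had 32.3, and CENPA, the histone H3 variant that marks the centromere, had 17.7. CENPC, the large scaffold that reads CENPA, had 2.34 FPKM, the lowest among the subunits with a mean of at least 100 counts, while CENPP and CENPS had 0.571 and 0.542. Of the 31-base words of CENPS, 62.2% occur also in the readthrough gene CENPS-CORT. Other genes cover 42.7% of the exons of CENPP, so the levels of CENPP and CENPS are uncertain. CENPF and CENPE, proteins of the outer kinetochore corona that are made late in the cell cycle, had 38.8 and 13.8.

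The libraries labelled PD-L1 knockdown were compared with the control by their labels, since CD274 RNA was not lower in them. No member passed an adjusted p of 0.05. By the quasi-likelihood test of edgeR, with p-values adjusted after Benjamini and Hochberg, 0 of 72 members were called higher, against 0.247% of all genes tested, and 0 lower, against 0.106%. The smallest adjusted p among them was 0.181, for CENPX. At an unadjusted p under 0.05, 3 of 72 members were higher, against 6.82% of all genes, and 6 of 72 were lower, against 4.92%. The 3 higher were CENPX (chr17:82018702-82024107 on GRCh38), KIF1C (chr17:4997948-5028401) and AURKA (chr20:56369389-56392337), and the 6 lower were KIF20B (chr10:89701610-89774939), KIF14 (chr1:200551497-200620734), CENPQ (chr6:49463378-49493107), CENPF (chr1:214603195-214664588), TTK (chr6:80003887-80042527) and TOP2A (chr17:40388516-40417950). DESeq2's Wald test called 0 members at the adjusted p (0.0151% of all genes in each direction). At its unadjusted p, 2 members were higher, against 1.72% of all genes, and 2 lower, against 0.569%. The members' median log2 fold change was -0.07, and that of all genes tested was 0.00.

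The members' differences were small in fold. Of the 63 members with a mean of at least 100 counts, 50 lay within 1.2-fold of the control (79.4%), as did 77.2% of all such genes, and their log2 fold changes ran from -0.46 to 0.42 with standard errors of 0.105 to 0.252. The smallest log2 change that was called among the genes with so many counts was 0.45 in size. A difference of 1.2-fold in a member was not detectable in this design, which has 1 control library.

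Each library was also set against the control with an interval that covers counting error only, and compares those libraries rather than the conditions. In library 1 the 95% interval of the ratio lay above 1 for 12 of 72 members (16.7%, against 15.4% of all genes). It lay below 1 for 20 (27.8%, against 13.6%). In library 2 it lay above 1 for 17 members (23.6%, against 19.5% of all genes) and below 1 for 30 (41.7%, against 18.7%). Both libraries lay above the control for 25 members (34.7%, against 37.7% of all genes) and both below for 37 (51.4%, against 36.8%). These shares depend on how deeply a gene is counted. Among the 10860 genes that averaged at least 100 counts, the library 1 interval lay above 1 for 22.2% and below 1 for 18.4%. For the 63 members of that depth these shares were 19.05% and 31.75%. In library 2 the interval lay above 1 for 28.6% and below 1 for 27.6% of such genes, beside 25.4% and 46.0% of the members. Both libraries lay above the control for 39.9% and below it for 38.2% of such genes, beside 34.9% and 54.0% of the members.

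**Figure D2:**
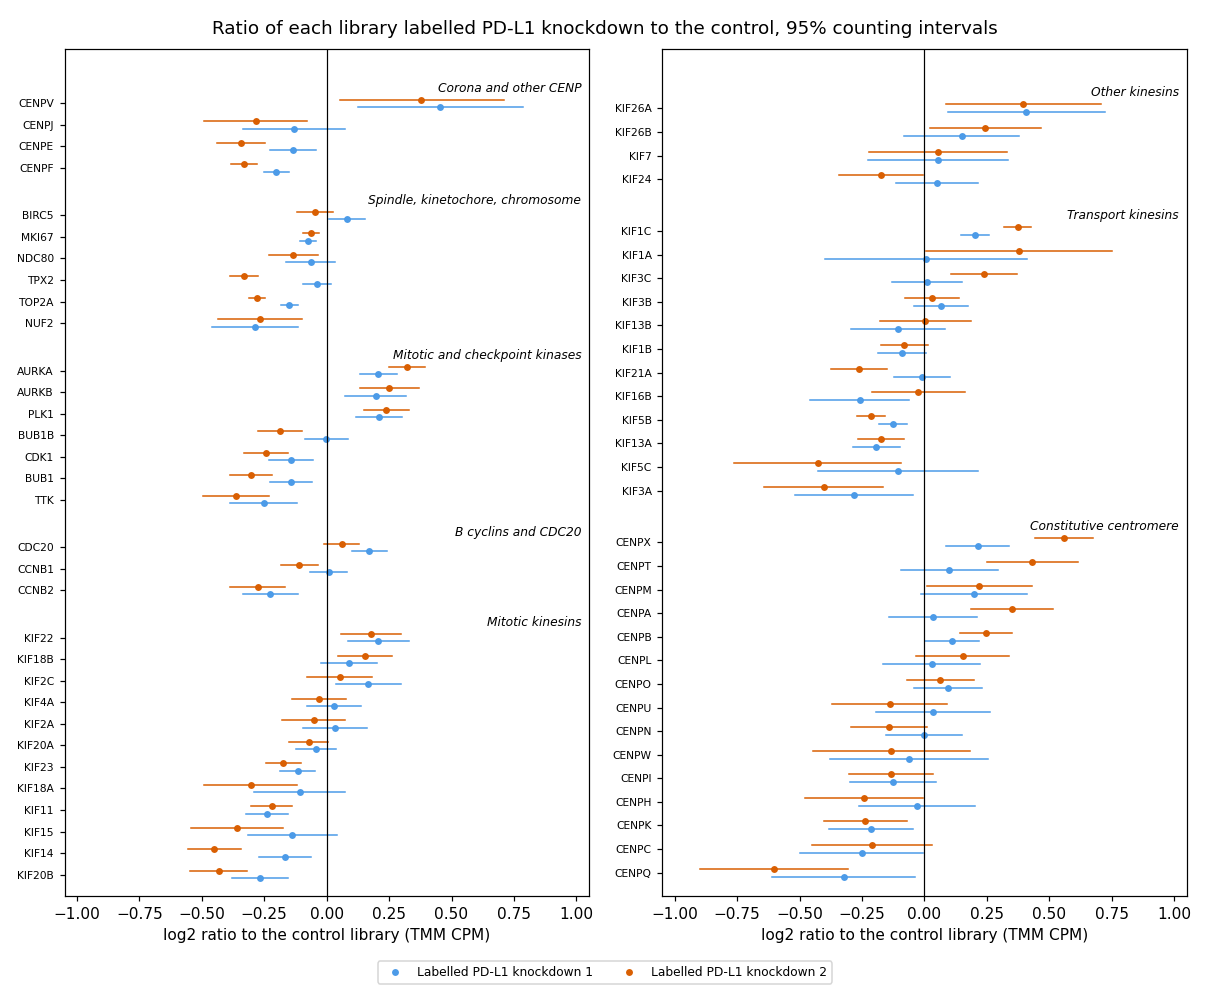
log2 ratio of the library labelled PD-L1 knockdown 1 (blue) or 2 (orange) to the control for the 63 members with a mean of at least 100 counts, by role; bars are 95% counting intervals and the vertical line marks no difference. AURKA, AURKB and PLK1 lie to the right of the line and TTK, BUB1, CENPF and KIF20B to the left in both libraries, while many intervals cross it.

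Mitotic kinesins had values on both sides of the control. None of the 13 tested passed the adjusted p, 2 were lower at the unadjusted p, and the median log2 fold change was -0.06. KIF20B, which acts in the completion of cytokinesis, had 1435 counts in the control against 1186 in library 1 and 1138 in library 2 (log2 fold change -0.35, SE 0.13, edgeR adjusted p = 0.229). KIF14, a motor of the midbody, had 1625, 1441 and 1274 counts (-0.30, SE 0.13, edgeR adjusted p = 0.308). For both, each library lay below the control, and library 2 was the lower. KIF11, the target of the inhibitor monastrol, had 2424, 2044 and 2227 counts, with -0.23 (SE 0.12).

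The other mitotic kinesins lay on both sides of the control. KIF23, which bundles the central spindle as part of centralspindlin, had 3472, 3190 and 3296 counts (-0.14, SE 0.12). KIF20A had 2538, 2451 and 2584 counts (-0.06, SE 0.12). KIF22, a chromokinesin, had the highest value among mitotic kinesins with a mean of at least 100 counts, 0.19 (SE 0.13) from 1010, 1161 and 1223 counts, with both libraries above the control. The depolymerizing kinesins KIF2A and KIF2C had -0.01 and 0.11. KIF18A and KIF18B, which damp chromosome movements and trim astral microtubules, had -0.20 and 0.12, and KIF15, which can stand in for KIF11, had -0.24. KIF4A, the chromokinesin that shortens midzone microtubules, had 1360, 1382 and 1425 counts and 0.00 (SE 0.13), and its intronless copy KIF4B had 3, 3 and 6. KIF4A and KIF4B share 27.3% and 28.2% of their 31-base words with other genes, chiefly with each other, so how reads were divided between them is uncertain.

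The mitotic kinases also had values on both sides of the control. AURKA, the kinase of the spindle poles, had 2651 counts in the control, 3047 in library 1 and 3548 in library 2 (log2 fold change 0.27, SE 0.12, edgeR adjusted p = 0.351). AURKB, the kinase of the chromosomal passenger complex, had 1018, 1161 and 1297 counts, with 0.22 (SE 0.13). PLK1, which triggers many steps of mitosis and was added here with its values known, stood at 1784, 2052 and 2254 counts (0.22, SE 0.12). For these 3 kinases, the interval lay above 1 in both libraries. AURKA shares 16.2% of its 31-base words with other genes, most with RAB3GAP2.

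The checkpoint kinases and CDK1 lay on the other side. TTK, the kinase that starts checkpoint signalling at unattached kinetochores, had 1022, 854 and 851 counts (log2 fold change -0.31, SE 0.14, edgeR adjusted p = 0.353). BUB1, which it recruits, had 2470, 2227 and 2141 counts (-0.22, SE 0.12), and its relative BUB1B had 2193, 2180 and 2064 (-0.09, SE 0.12). CDK1, the kinase that drives entry into mitosis, had 2194, 1979 and 1985 counts and -0.19 (SE 0.12). Over the 7 kinases the median was -0.09, with 3 above the control in both libraries and 4 below.

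Partners of these kinases did not share 1 direction. CCNB1, the main cyclin of CDK1, had 3023, 3027 and 2999 counts (log2 fold change -0.05, SE 0.12), and CCNB2 had 1423, 1212 and 1258 (-0.25, SE 0.13). CDC20, which ends their life, had 3056, 3424 and 3412 counts (0.12, SE 0.12), and 20.3% of its 31-base words occur in the pseudogene CDC20P1. TPX2, the activator of Aurora A, had 5511, 5342 and 4695 counts and -0.18 (SE 0.11), with a ratio of 0.974 in library 1 (interval 0.937 to 1.01) and 0.796 in library 2 (0.765 to 0.827). BIRC5, or survivin, a partner of Aurora B, had 3062, 3227 and 3173 counts and 0.02 (SE 0.12).

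Of the remaining chromosome and kinetochore genes, TOP2A had 15824, 14204 and 13951 counts (log2 fold change -0.21, SE 0.11, edgeR adjusted p = 0.398). MKI67, the most counted member, had 16267, 15378 and 16675 counts and -0.07 (SE 0.10). Its ratio to the control was 0.950 in library 1 and 0.957 in library 2, each with an interval below 1, so that at this depth counting error is smaller than a difference of this size. NUF2 and NDC80, partners in the complex that grips microtubules, had 622, 508 and 553 counts (-0.28, SE 0.16) and 1718, 1636 and 1676 counts (-0.10, SE 0.12).

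The centromere proper showed the widest spread among members that are well counted. Of 17 constitutive centromere genes, 8 lay above the control in both libraries and 8 below, and the median was -0.05. CENPX, a small histone-fold protein that pairs with CENPS and also serves in DNA repair, had 973, 1123 and 1534 counts and 0.40 (SE 0.13, edgeR adjusted p = 0.181). Its ratio to the control was 1.16 (interval 1.06 to 1.26) in library 1 and 1.47 (1.36 to 1.60) in library 2. CENPQ, a subunit of the CENP-O class complex that helps bring PLK1 to kinetochores, had 231, 184 and 163 counts and -0.46 (SE 0.21, edgeR adjusted p = 0.353).

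The histone-fold partners of CENPX were less well counted. CENPT had 424, 452 and 612 counts (0.28, SE 0.16), CENPW had 173, 165 and 169 (-0.10, SE 0.22) and CENPS had 14, 18 and 35 (0.86, SE 0.59). CENPS shares 62.2% of its 31-base words with the readthrough gene CENPS-CORT, so its counts are uncertain. CENPA had 521, 531 and 711 counts (0.20, SE 0.16) and CENPB had 1362, 1464 and 1729 (0.18, SE 0.13), with library 2 above the others for both. CENPC had 299, 250 and 277 counts (-0.23, SE 0.19), and 11.6% of its 31-base words occur in other genes, most in the pseudogene CENPCP1. CENPH, CENPI and CENPK, which form 1 complex with CENPM, had log2 fold changes of -0.13, -0.13 and -0.23, beside 0.21 for CENPM. CENPL and CENPN, which join on the CENPA nucleosome, had 0.09 and -0.07, and CENPO and CENPU, partners of CENPQ, had 0.08 and -0.05. None of these 8 had an unadjusted p under 0.05. Exons of CENPP, CENPO, CENPN and CENPT are covered over 42.7%, 31.4%, 22.8% and 19.6% of their length by other genes, chiefly on the opposite strand, and whether the counting used strand is not stated. The same holds, over at least 11.7% of the length, for KIF27, KIF22, PLK1, KIF7 and CENPU.

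Among the corona and other CENP genes, CENPF had 6729, 5826 and 5725 counts and -0.27 (SE 0.11, edgeR adjusted p = 0.306), and CENPE, the kinesin that carries chromosomes to the spindle equator, had 1940, 1759 and 1638 counts and -0.24 (SE 0.12). CENPJ, a centriole protein despite its name, had 416, 378 and 366 counts and -0.21 (SE 0.17). CENPV had the highest value of all well-counted members, 0.42 (SE 0.22), from 135, 184 and 188 counts. The group's median of -0.22 rests on 4 genes, 3 of them lower in both libraries.

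Transport kinesins had values on both sides of the control as well. KIF1C, which carries vesicles, had 4790, 5490 and 6645 counts and 0.29 (SE 0.11, edgeR adjusted p = 0.263), while its relative KIF1B had -0.09 (SE 0.12). KIF5B had 5323, 4854 and 4913 counts and -0.17 (SE 0.11). The 2 motor chains of kinesin-2 were KIF3B with 1357, 1414 and 1483 counts (0.05, SE 0.13) and KIF3A with 331, 271 and 268 (-0.34, SE 0.18). Among the rest with a mean of at least 100 counts, KIF1A had the highest value at 0.21 and KIF5C the lowest at -0.26, with KIF3C (0.13), KIF13B (-0.05), KIF21A (-0.13), KIF16B (-0.14) and KIF13A (-0.18) between them. The median of the 15 transport kinesins was -0.13, with 4 above the control in both libraries and 8 below. Of the other kinesins, KIF26A, which lacks motor activity, had 150, 198 and 211 counts (0.40, SE 0.22), KIF7, a regulator of Hedgehog signalling in cilia, had 208, 215 and 231 (0.05, SE 0.20), and KIF24, which acts at centrioles, had 599, 618 and 569 (-0.06, SE 0.15). KIF26B had 0.20 (SE 0.18).

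There were 9 tested members with a mean under 100 counts and wide errors, CENPS and KIF4B among them. CENPP, KIF17 and KIF21B had 83, 81 and 60 counts in the control, KIF27 had 60, KIF9 had 36 and KIF12 had 24, and KIF5A had 4. KIF27 shares 37.98% of its 31-base words with other genes, and 17.9% of the exons of KIF9 are covered by other genes, chiefly KIF9-AS1 on the opposite strand. None of them had an unadjusted p under 0.05.

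**Figure D3:**
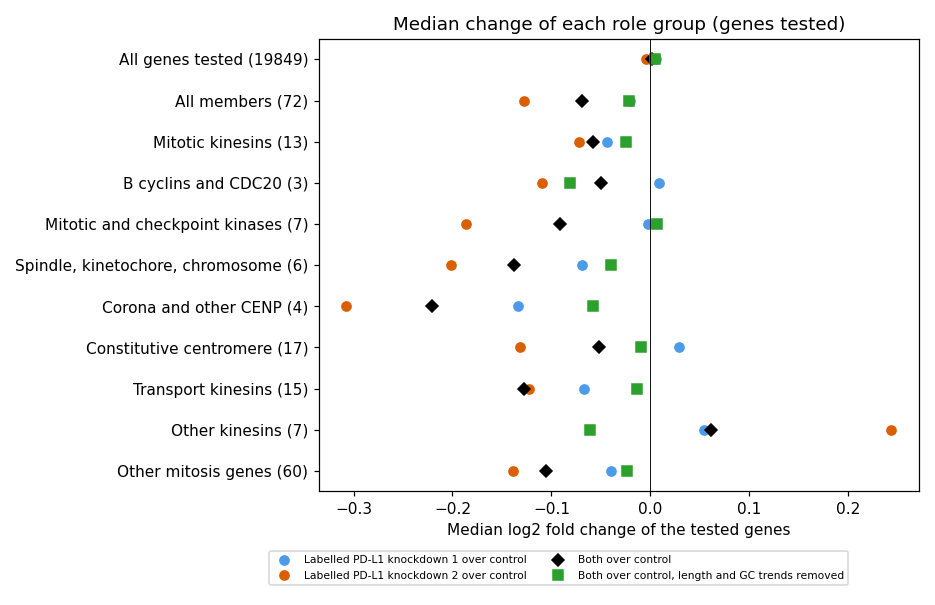
Median log2 fold change of the tested genes of each role group and of all genes tested (number of genes in brackets), for library 1, library 2 and both over the control, and for both after trends with gene length and GC content were removed. Library 2 lies further from 0 than library 1 in each group of members, and with the trends removed each group's median lies between -0.08 and 0.01.

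The direction of a member went with the GC content of its transcript. GC content here is that of the longest transcript of the gene, and its median over the genes tested was 48.5%. Of the 43 members below that median, 38 had a log2 fold change below 0, and of the 29 at or above it, 23 had one above 0. Over all genes tested, 68.4% of those at or above the median and 32.0% of those below it had a value above 0, beside 79.3% and 11.6% of members. Across the 63 members with a mean of at least 100 counts, Spearman's correlation of GC content with log2 fold change was 0.83, and across 10859 genes of that depth it was 0.67. This is a correlation across genes of the same 3 libraries, which share their preparation, and genes are not independent replicates.

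Many of the members named above show this order. KIF20B (34.2% GC), CENPQ (33.9%), CENPE (35.3%), KIF14 (38.3%) and TOP2A (39.1%) are poor in GC and had the lower values. CENPX (63.9%), CENPV (55.1%), KIF26A (68.3%), KIF1C (54.9%), PLK1 (57.1%) and AURKB (55.6%) are rich in GC and had the higher ones. AURKA, at 46.6%, had a value above 0 with a GC content below the median.

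When the trends of the log2 ratios with gene length and GC content were removed, the members' median became -0.02 and 18 of 72 members changed sign. No member passed the adjusted p of that fit, which called 0.00504% of all genes higher and 0.0151% lower. At its unadjusted p 0 of 72 members were lower, against 2.41% of all genes, and 2 were higher, against 3.79%, namely AURKA (0.29, SE 0.09) and KIF1C (0.19, SE 0.08). KIF20B then had -0.13, KIF14 -0.11, CENPF -0.11, TTK -0.18, TOP2A -0.04 and CENPX 0.14. AURKB and PLK1, each at 0.22 before the trends were removed, had 0.09 (SE 0.10) and 0.07 (SE 0.09). Of the 63 well-counted members 60 lay within 1.2-fold, with CENPQ the lowest at -0.30 and CENPV the highest at 0.29. What links GC content to the direction of these ratios was not tested.

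**Figure D4:**
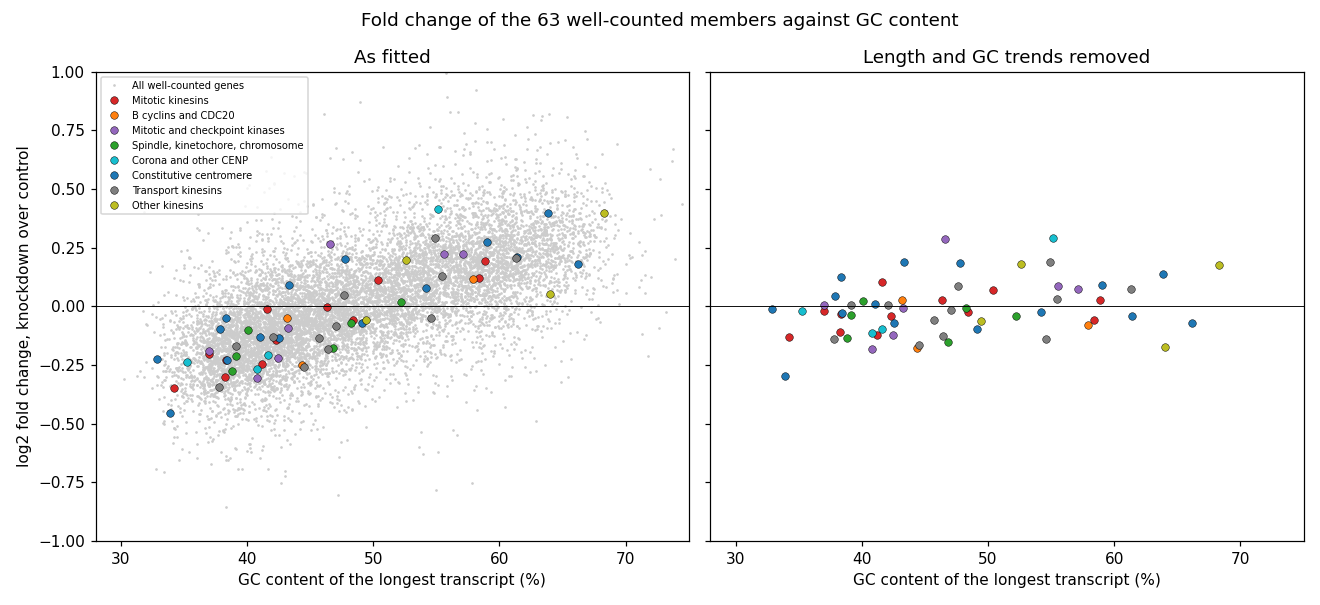
log2 fold change of the 63 members with a mean of at least 100 counts against the GC content of their longest transcript, coloured by role, as fitted (left, with all genes of that depth in grey) and with length and GC trends removed (right). On the left the members lie along the slope of the grey cloud (Spearman 0.83), and on the right they lie between -0.30 and 0.29 with a correlation of 0.27.

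The members were also grouped by the letters in their promoters. Of the well-counted members with a promoter sequence, the 16 with CHR letters in the last 100 bases had a median of 33.3 FPKM in the control and the 37 without had 12.5. Their median log2 fold changes were -0.12 and -0.07, and -0.02 and -0.01 with the trends removed. This describes few genes, and the list holds mitotic genes known for such promoters.

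The libraries labelled PD-L1 knockdown also differed from each other. The interval of library 2 over library 1 lay above 1 for 8 of 72 members (11.1%, against 12.9% of all genes). It lay below 1 for 17 (23.6%, against 13.3%). These shares too depend on depth. For the 10860 genes averaging 100 counts or more, the interval lay above 1 in 18.1% and below 1 in 19.4%. The 63 members counted that deeply held all 8 above and all 17 below. TPX2 had a ratio of 0.817 (interval 0.786 to 0.850), KIF14 0.822 (0.762 to 0.887), KIF21A 0.840 (0.776 to 0.908) and BUB1B 0.880 (0.829 to 0.935). On the other side CENPX had 1.27 (1.18 to 1.37), CENPT 1.26 (1.11 to 1.42), CENPA 1.25 (1.11 to 1.40), KIF3C 1.17 (1.07 to 1.28) and KIF1C 1.13 (1.09 to 1.17). These were chosen after their values were seen. GC content went with this ratio too, with a Spearman correlation of 0.53 over 63 members and 0.44 over all genes of that depth.

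Other genes of mitosis, which the symbol rule leaves out, were fitted with the same test. Of 60 such genes, all tested, 0 passed the adjusted p in edgeR. At the unadjusted p 2 were higher (3.33%, against 6.82% of all genes) and 8 lower (13.3%, against 4.92%). Over all genes averaging at least 100 counts, the same test gave 9.08% higher and 6.56% lower. DESeq2 gave 0 higher (against 1.72% of all genes) and 2 lower (3.33%, against 0.569%), and with the length and GC trends removed 1 was higher (1.67%, against 3.79%) and 0 were lower (against 2.41%). Their median log2 fold change was -0.11, and -0.02 with the length and GC trends removed. The genes with the smallest unadjusted p, named after their values were seen, were SGO2, which protects centromeric cohesion (916, 702 and 700 counts, -0.43, SE 0.14), and SMC2, a core subunit of condensin (3052, 2452 and 2539 counts, -0.34, SE 0.12). KIFC2 and KIFC3, kinesins of the minus-end-directed family, had 0.51 (SE 0.18) and 0.26 (SE 0.11). SGO2 and SMC2 have 34.7% and 37.6% GC, and KIFC2 and KIFC3 have 68.1% and 64.3%.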

How the data were processed

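RNA was extracted from DU145 cells, messenger RNA was enriched with oligo(dT) beads and copied from random hexamers, and libraries were sequenced by a service company. The authors deposited raw read counts per gene and FPKM values, and the deposited FPKM were checked: within a library they equal the count over the gene's length, times the same factor for every gene. The submitters' processing notes list Bowtie2 2.0.6, TopHat2 2.0.9, Cufflinks 2.1.1 and Cuffdiff 2.1.1, and strand use and the treatment of shared reads are not given in the sources used here.

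The comparison used edgeR 4.0.16 under R 4.3.3 (TMM, glmQLFit, glmQLFTest, at least 10 counts summed, Benjamini-Hochberg over 19849 genes). The fit has 1 residual degree of freedom, and its spread (common dispersion 0.00719) comes from the 2 libraries labelled PD-L1 knockdown and was pooled across genes. Ratios of 2 libraries have exact conditional binomial 95% intervals. Intervals and the limits that a count of 0 allows (3 counts) cover counting error alone, since amplified reads that carry no molecular identifier do not each stand for a molecule. DESeq2 1.42.0 and the removal of length and GC trends (20 classes each, as offsets) were among the alternatives. Before use the fit was run on simulated counts in which 200 genes changed 2-fold or 4-fold. It recovered 93% of the 2-fold and 100% of the 4-fold changes and called 9 unchanged genes. Differences as small as those of the members, and GC trends, were not simulated.

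The members and gene lists were chosen with earlier results of these data known. Genes named with values are, per role, the 3 highest mean FPKM, the largest rise and fall among members with a mean of at least 100 counts, members with an unadjusted p under 0.05 at that depth, and near-identical pairs. Others are said to be named after their values were seen, or complete a complex or family. Promoters are RefSeq sequences on GRCh38.p14. Some of the tissue markers looked at are not reported here.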

Additional observations from a re-analysis of the deposited data

How the results depend on the processing

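The count of 0 members at the adjusted p was the same with DESeq2 size factors, with library totals alone, with DESeq2's Wald test, with minima of 1 or 100 counts, and with length and GC trends removed. The 6 members lower at the unadjusted p became 2 with DESeq2's Wald test and 0 with the trends removed, and 9 with library totals alone. Over all genes tested, 70 calls at the adjusted p became 6 with DESeq2's Wald test and 4 with the trends removed. Of the other mitosis genes, 2 higher at the unadjusted p became 0 with DESeq2's Wald test and 1 with the trends removed, and 8 lower became 2 and 0. The cause of the differences between tools was not tested. The members' median log2 fold change stayed below 0 in every setting run, at -0.02 without library 2 and -0.13 without library 1, each a value of 1 library against 1 with no test. With the trends removed 18 of 72 members changed sign, none of them among the 3 higher and 6 lower at the unadjusted p. No paired analysis was possible because the control has 1 library. The depth limits members with under 100 counts, and the lack of a second control limits the rest.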
